A study of Caenorhabditis elegans with 4 samples.

Results

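The *nlp* genes of *C. elegans* encode neuropeptide-like proteins, and their mRNA levels were followed through larval life in the *prg-1* mutant. Members were taken by name, as every listed gene called *nlp* with a number, which gave 44 of the 46096 genes in the files. A further 37 listed genes are named *nlp* in the WBcel235 reference but otherwise in the files, and were not included. Of the 44 members, 11 are the epidermal peptide genes *nlp-24* to *nlp-34*, and the other 33 are described apart from them. The worms carried the *prg-1* mutation (*wm161*), were fed OP50 bacteria at 20°C, and were collected whole as larvae, at stages L1, L2, L3 and L4. Each stage gave 1 library of RNA selected by its poly(A) tail. All 4 groups carry the same mutation, and wild-type worms were not analysed here, so the comparisons below are between stages of the mutant.

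An *nlp* gene encodes a precursor protein that is cut into several short peptides. In neurons, the convertase EGL-3 cuts the precursor, the carboxypeptidase EGL-21 trims the ends, many peptides are then amidated, and the products leave dense-core vesicles to act on G protein-coupled receptors. The peptides of *nlp-24* to *nlp-34* are rich in glycine, and several of them, *nlp-29* first of all, are known as antimicrobial peptides that the epidermis makes after infection by the fungus *Drechmeria coniospora* or after wounding. Most of the other members are made by small sets of neurons, so that in a whole worm their mRNA is a small part of the total. In such bulk samples, fewer cells of a type and less mRNA per cell cannot be told apart.

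Levels are given as FPKM, the fragments assigned to a gene per kilobase of transcript, scaled to all mapped fragments of the library, with the 95% interval of the file in parentheses. All 44 members had the status OK at all 4 stages. The relative depth of the libraries, recovered from genes below 1 FPKM, was 1 for L1, 1.005 for L2, 1.038 for L3 and 1.053 for L4, and depth therefore differed little. Failed estimates numbered 18 to 41 genes per library. *prg-1* itself was read in every library, with 11.02 FPKM in L1 worms, 11.7 in L2, 12.96 in L3 and 23.6 in L4, which leaves the altered allele unchecked, since reads were summed over the gene. Markers of neurons, epidermis, intestine, muscle and germline were read at all stages, with no marker of status OK listed at 0. For 8 or 9 of the 11 epidermal genes at each stage and 12 to 14 of the other 33, mostly short genes, the FPKM lay outside its own interval, above it in every case. Intervals were therefore compared with intervals and FPKM with FPKM. A gene listed at 0 has an interval of 0 to 0, so no error is attached to that value.

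The 2 groups of *nlp* genes had different courses. The summed level of *nlp-24* to *nlp-34* was 688 FPKM in L1 worms, 1215 in L2, 839.9 in L3 and 950.4 in L4, and thus was highest at L2. *nlp-24* alone gave 127, 500.6, 326 and 436 FPKM of these sums. The median level of the 11 genes was 45.1, 45.7, 64.4 and 65.1 FPKM from L1 to L4. The summed level of the other 33 genes was 1966, 1334, 1503 and 1109.7 FPKM in the same order, and thus was highest at L1 and lowest at L4. Of the 11 epidermal genes, 8 had their highest FPKM at L2, 2 at L1 and 1 at L3, and none was highest at L4. Of all 13614 protein-coding genes that reached 1 FPKM at some stage, 21.1% were highest at L2 (19.1% of all 19443 with the status OK). L3 and L4 were highest for 15.3% and 22.4% (13.4% and 20.3% of all). Of the other 33 genes, 27 were highest at L1, 4 at L3, 1 at L4 and 0 at L2, and *nlp-39* was listed at 0 throughout. L1 was the highest stage for 41.2% of protein-coding genes at 1 FPKM or more (37.9% of all), and for 30.2% after rescaling by median ratio, when 25 of the 33 members were highest there. The highest stage stood clear, with an interval above the other 3, for 11 of the 33 genes at L1 (7.91% of protein-coding genes at 1 FPKM or more, 5.65% of all), for *nlp-20* at L3 (1.29%, 0.91% of all) and for *nlp-23* at L4 (4.5%, 3.28% of all). *nlp-23* was below 1 FPKM and stood clear only of listed values of 0, to which no error is attached. Among the epidermal genes the highest stage stood clear for *nlp-30* and *nlp-33* at L2 (4.8%, 3.39% of all) and for *nlp-27* at L1. The 2 epidermal genes inside their own intervals at all stages, *nlp-25* and *nlp-32*, were both highest at L2, and of the 19 other members of this kind 14 were highest at L1. Each stage is a single library, so differences between stages have no check by replicates and no p-value is given. Samples are labelled by stage only, without the time of collection within the stage.

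A gene was called between 2 stages when its log2 difference, taken after adding 1 FPKM, was 1 or more, its level was at least 1 FPKM in one of them, and its intervals did not overlap. At L2 against L1, 3 of the 11 epidermal genes rose, *nlp-24*, *nlp-30* and *nlp-33*, and 0 fell. Among all protein-coding genes the rule called 4.71% higher and 1.74% lower (6.73% and 2.48% of those at 1 FPKM or more). At L3 against L2, *nlp-30* and *nlp-32* fell and none of the 11 rose, beside 2.17% lower and 1.15% higher of all genes (3.09% and 1.64% at 1 FPKM or more). At L4 against L3, *nlp-32* rose, beside 2.56% of all genes (3.66%), and none fell, beside 0.355% (0.506%). At L4 against L1, *nlp-24* and *nlp-33* were higher and none was lower, beside 7.1% and 3.2% of all genes (10.1% and 4.57% at 1 FPKM or more). The median log2 difference of the 11 genes was 0.51 at L2 against L1, -0.96 at L3 against L2 and 0.37 at L4 against L3. The median over all protein-coding genes of status OK was -0.03, 0 and 0 in these comparisons. Over genes at 1 FPKM or more in one of the 2 stages it was -0.12 for L2 against L1 and -0.10 for L4 against L1, so that levels at L1 were in general slightly higher.

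The largest difference from L1 among the epidermal genes was that of *nlp-24* (F35B12.7), whose peptides act in the worm as opioid-like signals through the receptor NPR-17. *nlp-24* measured 127 FPKM in L1 worms (67.7 to 87.00), 500.6 in L2 (278 to 318), 326 in L3 (179 to 211) and 436 in L4 (242 to 279). L1 lay far below the other 3 stages, L2 was the highest, and the intervals at L2 and L4 overlapped only at their ends. At L2 against L1 the level was 3.93-fold higher, a log2 difference of 1.97, and the intervals allow a ratio no lower than 3.19. By FPKM it was the most abundant of all 44 members at L2 and L4, and ranked 281 among protein-coding genes at L2 and 873 at L1. By intervals, however, *nlp-24* lay below *nlp-40* at L4 (325 to 366 for *nlp-40*) and overlapped it at L2 (268 to 306). The listed span of *nlp-24* is described next. It shares 76 bases with *glb-15* on the opposite strand, which measured 1.29 to 2.30 FPKM.

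*nlp-33* (T19C4.7), another of the glycine-rich set, followed the same order. It measured 45.1 FPKM in L1 worms (15.5 to 27.4), 174 in L2 (66.7 to 90.2), 89.2 in L3 (32.8 to 48.2) and 116 in L4 (43.4 to 63.95). The interval at L2 lay above the other 3, and that at L1 below them. Its log2 difference was 1.93 for L2 against L1, -0.96 for L3 against L2 and 1.34 for L4 against L1. *nlp-26* (Y43F8C.2) measured 11.5 FPKM in L1 worms (2.31 to 8.37), 29.4 in L2 (7.46 to 16.9), 13.4 in L3 (3.06 to 9.45) and 19.5 in L4 (4.66 to 12.6). Its values also peaked at L2, with a log2 difference of 1.28 from L1, but its intervals at L1 and L2 overlapped and the rule did not call it.

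*nlp-25* and *nlp-32* were near the limit of detection. *nlp-25* (Y43F8C.1), the neighbour of *nlp-26*, was listed at 0 FPKM in L1 worms, 1.41 in L2 (0 to 2.44), 0 in L3 and 0.675 in L4 (0 to 1.29). *nlp-32* (F30H5.2) was listed at 2.56 FPKM in L1 worms (0.473 to 3.79), 4.08 in L2 (0.941 to 4.94), 0 in L3 and 1.95 in L4 (0.225 to 3.15). Its calls at L3 against L2 and at L4 against L3 rest on the single listed 0 at L3, and at a minimum of 5 FPKM neither is made.

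**Figure D1:**
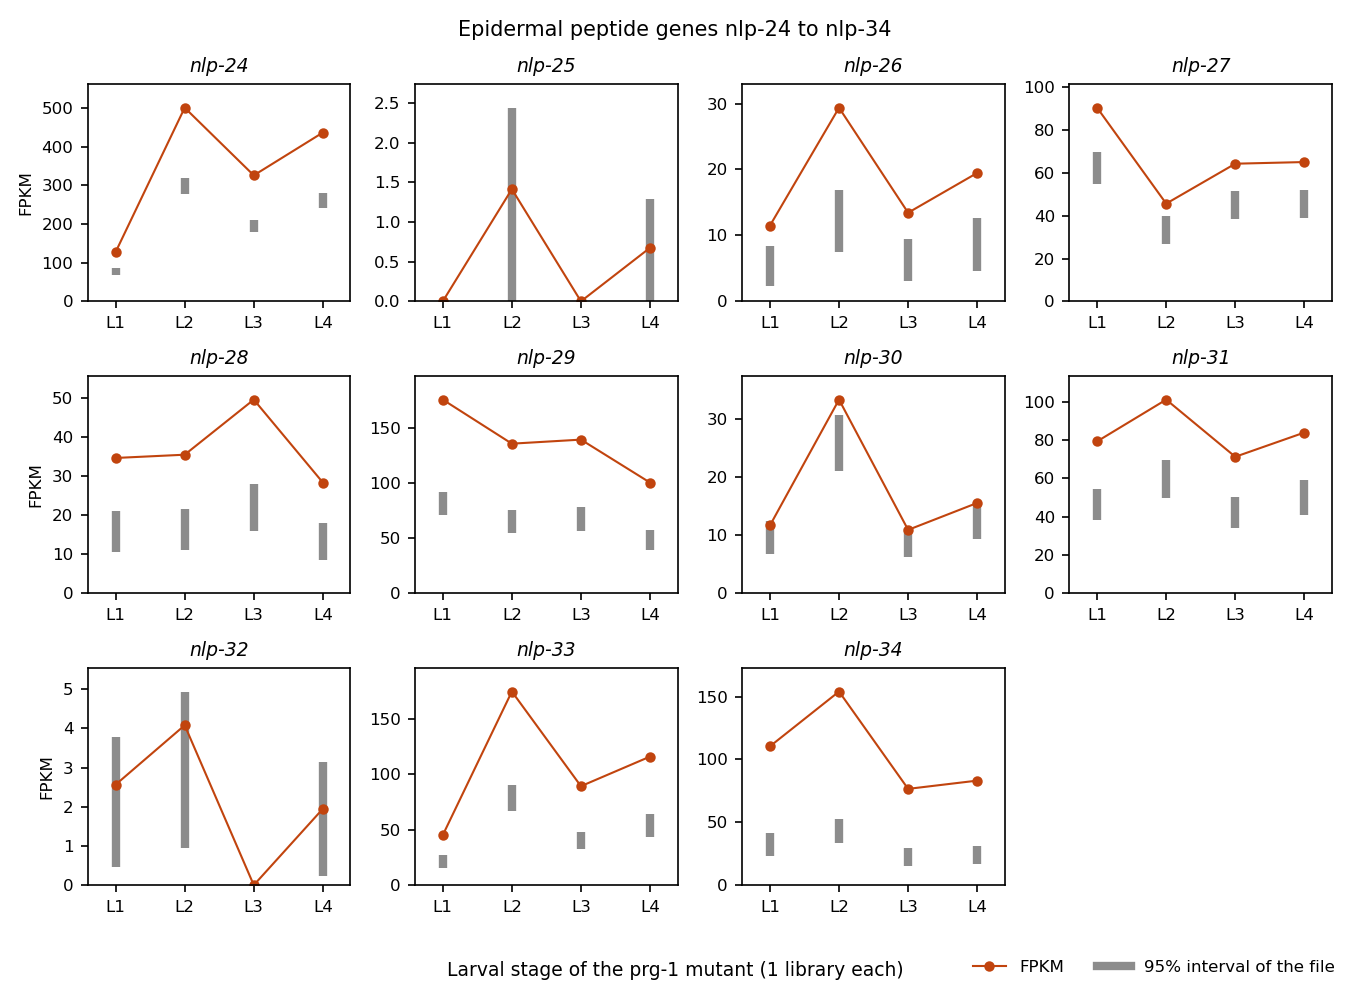
Level in FPKM (y axis, linear from 0, a scale for each gene) of the 11 epidermal peptide genes at L1 to L4 (x axis, 1 library each), with points for the FPKM and grey bars for the 95% interval of the file. In 8 panels the highest point is at L2, and in 9 panels at least 1 point lies above its own grey bar.

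The remaining epidermal genes lie together. *nlp-34*, *nlp-31*, *nlp-30*, *nlp-29*, *nlp-28* and *nlp-27* are listed in this order on chromosome V from 3978829 to 3989770 (coordinates as in the files, whose processing notes name build ce10), within 10942 bases that hold no other protein-coding gene. *nlp-34* is on the reverse strand and the other 5 on the forward strand in the annotation. The gaps between neighbours run from 776 bases (*nlp-28* to *nlp-27*) to 3050 bases (*nlp-29* to *nlp-28*). Of all 11 epidermal genes 10 are on chromosome V and *nlp-32* is on chromosome III, whereas the other 33 members are spread over 6 chromosomes, with 10 on X.

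The 6 genes of this cluster did not move as 1 unit. *nlp-29* (B0213.4), the best known of the antimicrobial set, measured 175 FPKM in L1 worms (71.2 to 92.1), 135 in L2 (54.4 to 75.2), 139 in L3 (55.98 to 77.99) and 100.2 in L4 (39.5 to 57.5). L1 was its highest stage and L4 its lowest, with intervals that did not overlap, and a log2 difference of -0.80 that the rule did not call. *nlp-27* (B0213.2) measured 90.5 FPKM in L1 worms (55.02 to 69.9), 45.7 in L2 (26.7 to 39.7), 64.4 in L3 (38.6 to 51.5) and 65.1 in L4 (39.02 to 52.3). It was the only epidermal gene with an interval at L1 above all the others, and its log2 difference at L2 against L1, -0.97, was just short of the rule. *nlp-28* (B0213.3) measured 34.6 FPKM in L1 worms (10.5 to 20.9), 35.4 in L2 (10.95 to 21.6), 49.5 in L3 (15.8 to 27.95) and 28.3 in L4 (8.42 to 17.9), with intervals that overlapped between all stages.

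At the other end of the cluster, 3 neighbours were highest at L2. *nlp-30* (B0213.5) measured 11.7 FPKM in L1 worms (6.73 to 12.5), 33.3 in L2 (21.1 to 30.7), 10.9 in L3 (6.24 to 11.3) and 15.5 in L4 (9.35 to 15.4). Its interval at L2 lay above the other 3, with log2 differences of 1.44 at L2 against L1 and -1.53 at L3 against L2. *nlp-31* (B0213.6), whose peptide is active against fungi and bacteria, measured 79.2 FPKM in L1 worms (38.3 to 54.3), 101 in L2 (49.5 to 69.4), 71.2 in L3 (34.2 to 50.1) and 83.8 in L4 (40.8 to 59.04). Its 4 intervals overlapped one another. *nlp-34* (B0213.17) measured 110.4 FPKM in L1 worms (23.4 to 41.3), 154 in L2 (33.5 to 52.7), 76.5 in L3 (15.6 to 29.5) and 83.1 in L4 (16.99 to 30.7). Its interval at L2 lay above those at L3 and L4 and overlapped that at L1. Thus the 3 genes from *nlp-34* to *nlp-30* were highest at L2 and the 3 from *nlp-29* to *nlp-27* were not, while all 5 epidermal genes outside the cluster were highest at L2.

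The 6 neighbours encode related peptides and may share reads. For reads that match several places, the method is not given in the sources used here, and to that extent the levels of single genes in the cluster are uncertain.

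The genes around the epidermal peptides gave a mixed picture. The caenacins are a second family of epidermal antimicrobial peptides. Of 11 *cnc* genes, none rose at L2 against L1 and *cnc-2* and *cnc-11* fell. Of all protein-coding genes 4.71% rose and 1.74% fell there (6.73% and 2.48% at 1 FPKM or more). By the rule *cnc-11* was higher at L3 against L2, beside 1.15%, and *cnc-9* at L4 against L3, beside 2.56%. At L4 against L1 *cnc-9* was higher and *cnc-2* lower, beside 7.1% and 3.2%. The calls of *cnc-9* and *cnc-11* rest on listed values of 0. *cnc-2* measured 17.9 FPKM in L1 worms (5.50 to 13.7), 2.30 in L2 (0.248 to 3.48), 3.34 in L3 (0.482 to 4.09) and 1.10 in L4 (0 to 2.14), and *cnc-3*, the most abundant, 157 FPKM in L1 worms (73.8 to 94.4), 125 in L2 (58.1 to 77.5), 119 in L3 (55.3 to 73.6) and 97.6 in L4 (44.7 to 61.8). *cnc-8* measured 52.7, 58.6, 65.2 and 65.9 FPKM and *cnc-10* 81.8, 74.2, 52.3 and 42.5 from L1 to L4. *cnc-11* measured 5.32 FPKM in L1 worms (0.376 to 4.51), 0 in L2, 10.3 in L3 (0.724 to 6.16) and 8.42 in L4 (0.714 to 5.71). *cnc-9* was listed at 0 from L1 to L3 and at 21.4 FPKM at L4, above its interval of 3.05 to 10.2. Of 16 genes listed for the epidermal immune signalling upstream of *nlp-29*, none was called in any of the 4 comparisons. Over all protein-coding genes the rule called 0.355% to 7.1% in a comparison and direction (0.506% to 10.1% at 1 FPKM or more). Of the 16 genes, 11 were highest at L1 and 3 at L2. Of all protein-coding genes 37.9% were highest at L1 and 19.1% at L2 (41.2% and 21.1% at 1 FPKM or more). *nipi-3*, a pseudokinase of that path, measured 69.6 FPKM in L1 worms (61.1 to 69.1), 53.6 in L2 (46.9 to 54.5), 43.4 in L3 (37.7 to 44.3) and 37.5 in L4 (32.5 to 38.4), and *tir-1*, an adaptor protein, 73.8 FPKM in L1 worms, 62.6 in L2, 50.8 in L3 and 40.2 in L4. *rack-1*, a scaffold protein and the most abundant of the list, measured 2679, 2260.1, 2226 and 2221 FPKM from L1 to L4. *elt-3*, a GATA factor of the epidermis, measured 82.8 FPKM in L1 worms (75.9 to 89.8), 60.1 in L2 (54.3 to 65.8), 69.3 in L3 (63.4 to 75.3) and 49.4 in L4 (44.6 to 54.3), with a level at L2 below that at L1. *dcar-1*, the receptor upstream of this path, ran the other way, with 16.3 FPKM in L1 worms (13.9 to 18.7), 24.2 in L2 (21.4 to 27.2), 25.7 in L3 (22.8 to 28.6) and 25.4 in L4 (22.6 to 28.3), so that its intervals at L2, L3 and L4 lay above that at L1.

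Epidermal markers were mixed, and their sum had the same order of stages as the sum of the epidermal peptides. Over the 11 of 12 with the status OK at all stages, the summed level was 4152 FPKM in L1 worms, 12592 in L2, 8577 in L3 and 9966 in L4. In the *nlp-24* to *nlp-34* sum, *nlp-24* was the largest part at L2, L3 and L4 and has this order itself. The median of the *nlp-24* to *nlp-34* genes did not have this order. By the rule, 5 of the 12 rose at L2 against L1 (*rol-6*, *sqt-3*, *dpy-13*, *wrt-2* and *che-14*) and *bli-1* fell. Of all protein-coding genes 4.71% were called higher and 1.74% lower (6.73% and 2.48% at 1 FPKM or more). Regardless of the rule, 7 of the 12 were higher at L2 than at L1 and 5 lower. The collagen gene *col-10*, the most abundant marker, measured 3388, 6061, 4921 and 4957 FPKM from L1 to L4 and *sqt-3* 209, 2418, 1371 and 1784 FPKM. The cuticle collagen gene *dpy-13* measured 170.1, 3001, 1521 and 2484 FPKM from L1 to L4. The 5 lower at L2 were *bli-1*, *vha-8* and the transcription factor genes *lin-26*, *elt-1* and *elt-3*. *lin-26* measured 88.4, 84.1, 69.7 and 65.4 FPKM and *elt-1* 22.6, 17.6, 13.8 and 10.6 FPKM, and like *elt-3* above both had their lowest values at L4. *vha-8*, a proton pump subunit, measured 993 FPKM at L1 and 889 at L2, and failed at L4. The part of these genes in the course of the peptides was not tested.

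Most of the other 33 members were lower after L1. None was called at L2 against L1, L3 against L2 or L4 against L3 in either direction. In these comparisons the rule called 1.74%, 2.17% and 0.355% of all protein-coding genes lower (2.48%, 3.09% and 0.506% at 1 FPKM or more). It called 4.71%, 1.15% and 2.56% higher (6.73%, 1.64% and 3.66%). At L4 against L1, 12 of the 33 fell and 0 rose, beside 3.2% lower and 7.1% higher of all protein-coding genes (4.57% and 10.1% of those at 1 FPKM or more). The 12 are *nlp-1*, *nlp-3*, *nlp-7*, *nlp-8*, *nlp-10*, *nlp-12*, *nlp-15*, *nlp-17*, *nlp-18*, *nlp-35*, *nlp-37* and *nlp-38*. When intervals alone were compared, 17 of the 33 lay lower at L2 than at L1 and 0 higher, beside 11.9% and 9.04% of all genes (15.9% and 12.6% at 1 FPKM or more). After rescaling by median ratio 12 of 33 lay lower. At L3 against L2 the counts were 0 lower and 2 higher, beside 9.58% and 7.01% of all genes (13.3% and 9.73%), and at L4 against L3 9 lower and 1 higher, beside 5.24% and 8.6% (7.19% and 11.2%). The 1 higher was *nlp-23*, at 0.846 FPKM beside a listed 0. At L4 against L1, 20 of the 33 and the epidermal *nlp-27* and *nlp-29* lay lower, beside 15.7% (21.4%). The FPKM of 18 genes was lower at each later stage than at the one before, a course found in 10.3% of all genes and 12.6% of those at 1 FPKM or more. The median log2 difference was -0.52 at L2 against L1, -0.02 at L3 against L2, -0.37 at L4 against L3 and -0.87 at L4 against L1. Over the 29 members at 1 FPKM or more in one of the 2 stages it was -0.55, -0.04, -0.40 and -1.15.

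**Figure D2:**
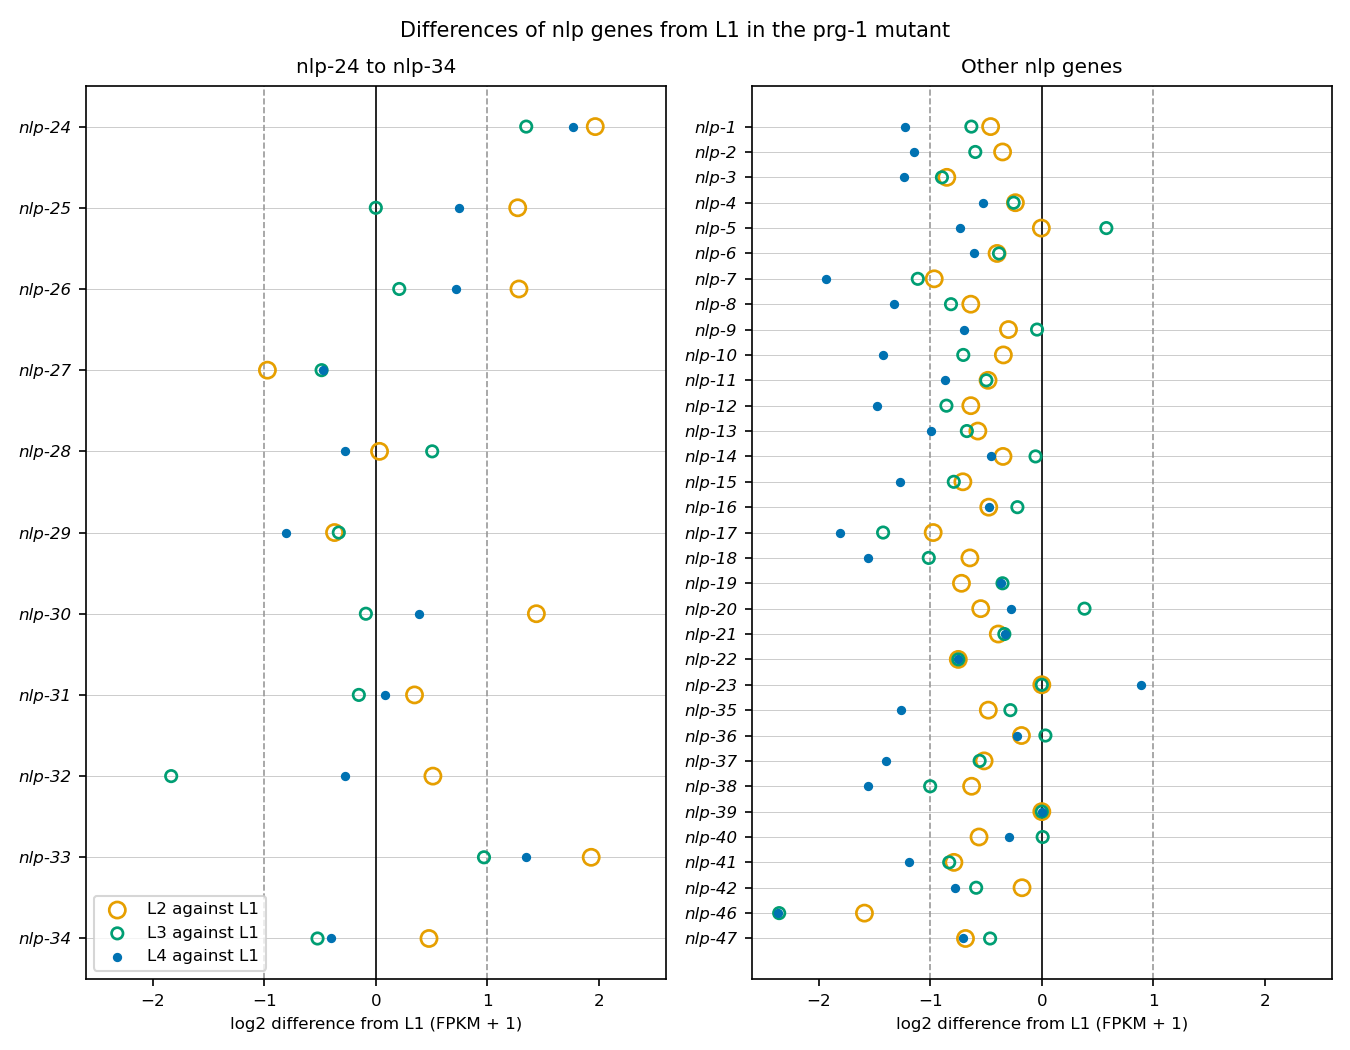
log2 difference of FPKM + 1 from L1 (x axis) at L2, L3 and L4 for each member (y axis), with the epidermal genes in the left panel, the other 33 in the right, and dashed lines at -1 and 1. The L2 circles lie right of 0 for 9 of 11 epidermal genes and left of or at 0 for all 33 others.

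Among the called members are peptides with a known neuron of origin. *nlp-12* (M01D7.5), a cholecystokinin-like peptide that the stretch-sensitive neuron DVA releases onto motor neurons, measured 139.7 FPKM in L1 worms (74.2 to 94.6), 89.5 in L2 (46.6 to 62.5), 76.8 in L3 (39.6 to 54.7) and 49.7 in L4 (24.9 to 36.4). The interval at L1 lay above the other 3 and that at L4 below them, and the level at L1 was 2.81 times that at L4. Its listed span shares 167 bases with *emr-1* on the same strand, which measured 76.9 to 95.9 FPKM. *nlp-3* (F48C11.3), a peptide of the egg-laying neurons HSN, measured 46.4 FPKM in L1 worms (24.9 to 36.8), 25.2 in L2 (12.97 to 21.2), 24.5 in L3 (12.6 to 20.6) and 19.1 in L4 (9.49 to 16.9). Most of its drop lay between L1 and L2, and the later 3 intervals overlapped. *nlp-1* (C01C4.1), which the olfactory neuron AWC uses to signal to an interneuron, measured 21.7 FPKM in L1 worms (13.1 to 20.3), 15.5 in L2 (9.12 to 15.7), 13.7 in L3 (7.98 to 14.2) and 8.70 in L4 (4.84 to 9.44). Its intervals at L1 and L2 overlapped, and that at L4 lay below that at L1.

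*nlp-7* (F18E9.2) had the largest log2 difference among the called genes outside *nlp-24* to *nlp-34*, -1.93 at L4 against L1. It measured 13.8 FPKM in L1 worms (9.93 to 17.97), 6.61 in L2 (3.85 to 9.36), 5.87 in L3 (3.42 to 8.52) and 2.89 in L4 (1.03 to 4.94). *nlp-17* (Y45F10A.5) followed, with -1.81, and measured 89.4 FPKM in L1 worms (42.1 to 60.3), 45.03 in L2 (20.3 to 32.05), 32.7 in L3 (14.3 to 24.7) and 24.8 in L4 (10.6 to 19.6). For both genes L1 stood alone above the other 3 stages. *nlp-18* (F33A8.2) measured 93.5 FPKM in L1 worms (82.8 to 104.2), 59.4 in L2 (51.05 to 67.9), 45.8 in L3 (38.7 to 52.96) and 31.2 in L4 (25.4 to 36.9), and its value was lower at each later stage, with the interval at L1 above the others.

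*nlp-37*, named *pdf-2* in the reference, encodes a ligand of the receptor PDFR-1 that sets locomotor activity. It measured 56.7 FPKM in L1 worms (32.6 to 47.1), 39.3 in L2 (22.2 to 32.2), 38.2 in L3 (21.5 to 31.5) and 20.9 in L4 (11.2 to 18.8). L2 and L3 were alike, and L4 lay below both with intervals apart. *nlp-8* (D2005.2), a peptide of the sleep-active neuron ALA, measured 93.4 FPKM in L1 worms (66.1 to 81.2), 59.7 in L2 (41.6 to 52.9), 52.7 in L3 (36.6 to 46.3) and 36.8 in L4 (25.1 to 35.1). *nlp-38*, named *mihp-1* in the reference, encodes peptides of the myoinhibitory kind and measured 48.5 FPKM in L1 worms (42.1 to 54.99), 31.03 in L2 (25.9 to 36.1), 23.8 in L3 (19.4 to 28.1) and 15.9 in L4 (12.4 to 19.4).

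The other 3 called genes were *nlp-10*, *nlp-15* and *nlp-35*. *nlp-10* measured 39.9, 31.2, 24.1 and 14.2 FPKM from L1 to L4, *nlp-15* 57.3, 34.7, 32.7 and 23.1 FPKM and *nlp-35* 98.01, 70.01, 80.4 and 40.2 FPKM. The listed span of *nlp-35* shares 51 bases with C33A12.19 on the opposite strand, which measured 15.6 to 30.9 FPKM. Its interval at L4 lay below the other 3. *nlp-13*, with 128, 85.9, 80.2 and 64.1 FPKM, was just outside the rule at a log2 difference of -0.99.

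Other abundant members were not called. *nlp-40* (Y74C9A.2), the peptide that the intestine releases to time the defecation cycle through the receptor AEX-2, was the highest of the 33 at each stage. It measured 424 FPKM in L1 worms (399.8 to 449), 287 in L2 (268 to 306), 426 in L3 (403 to 449.9) and 345 in L4 (325 to 366). L1 and L3 were alike, L2 was the lowest, and L4 lay between them with intervals apart from both sides. *nlp-20* (F45E4.8) was the only member with an interval at L3 above all the others, at 90.2 FPKM in L1 worms (78.4 to 102), 61.4 in L2 (51.9 to 71.1), 118 in L3 (105 to 131) and 74.4 in L4 (64.1 to 84.8). *nlp-14* (D1009.4), which also acts in ALA-driven sleep, measured 41.8 FPKM in L1 worms (37.1 to 46.5), 32.6 in L2 (28.6 to 36.7), 40.1 in L3 (35.7 to 44.6) and 30.2 in L4 (26.3 to 34.04), with higher values at L1 and L3. *nlp-9*, at 87.4, 70.9, 84.8 and 53.6 FPKM, and *nlp-16*, at 49.9, 35.6, 42.7 and 35.6 FPKM, likewise had a lower value at L2 than at L1 and L3. *nlp-36*, at 75.5, 66.4, 77.2 and 64.6 FPKM, had overlapping intervals at all stages, and its listed span shares 25 bases with *dars-1*, at 107 to 129 FPKM. *nlp-21*, at 38.04, 28.8, 29.9 and 29.97 FPKM, was about level from L2 to L4. *nlp-47*, a relative of the gonadotropin-releasing hormone peptides, at 51.2, 31.5, 36.8 and 31.04 FPKM, was lower at L2, L3 and L4 than at L1. *nlp-11*, at 60.5, 43.05, 42.6 and 32.6 FPKM, was lower at each later stage, with an interval at L1 above the other 3.

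**Figure D3:**
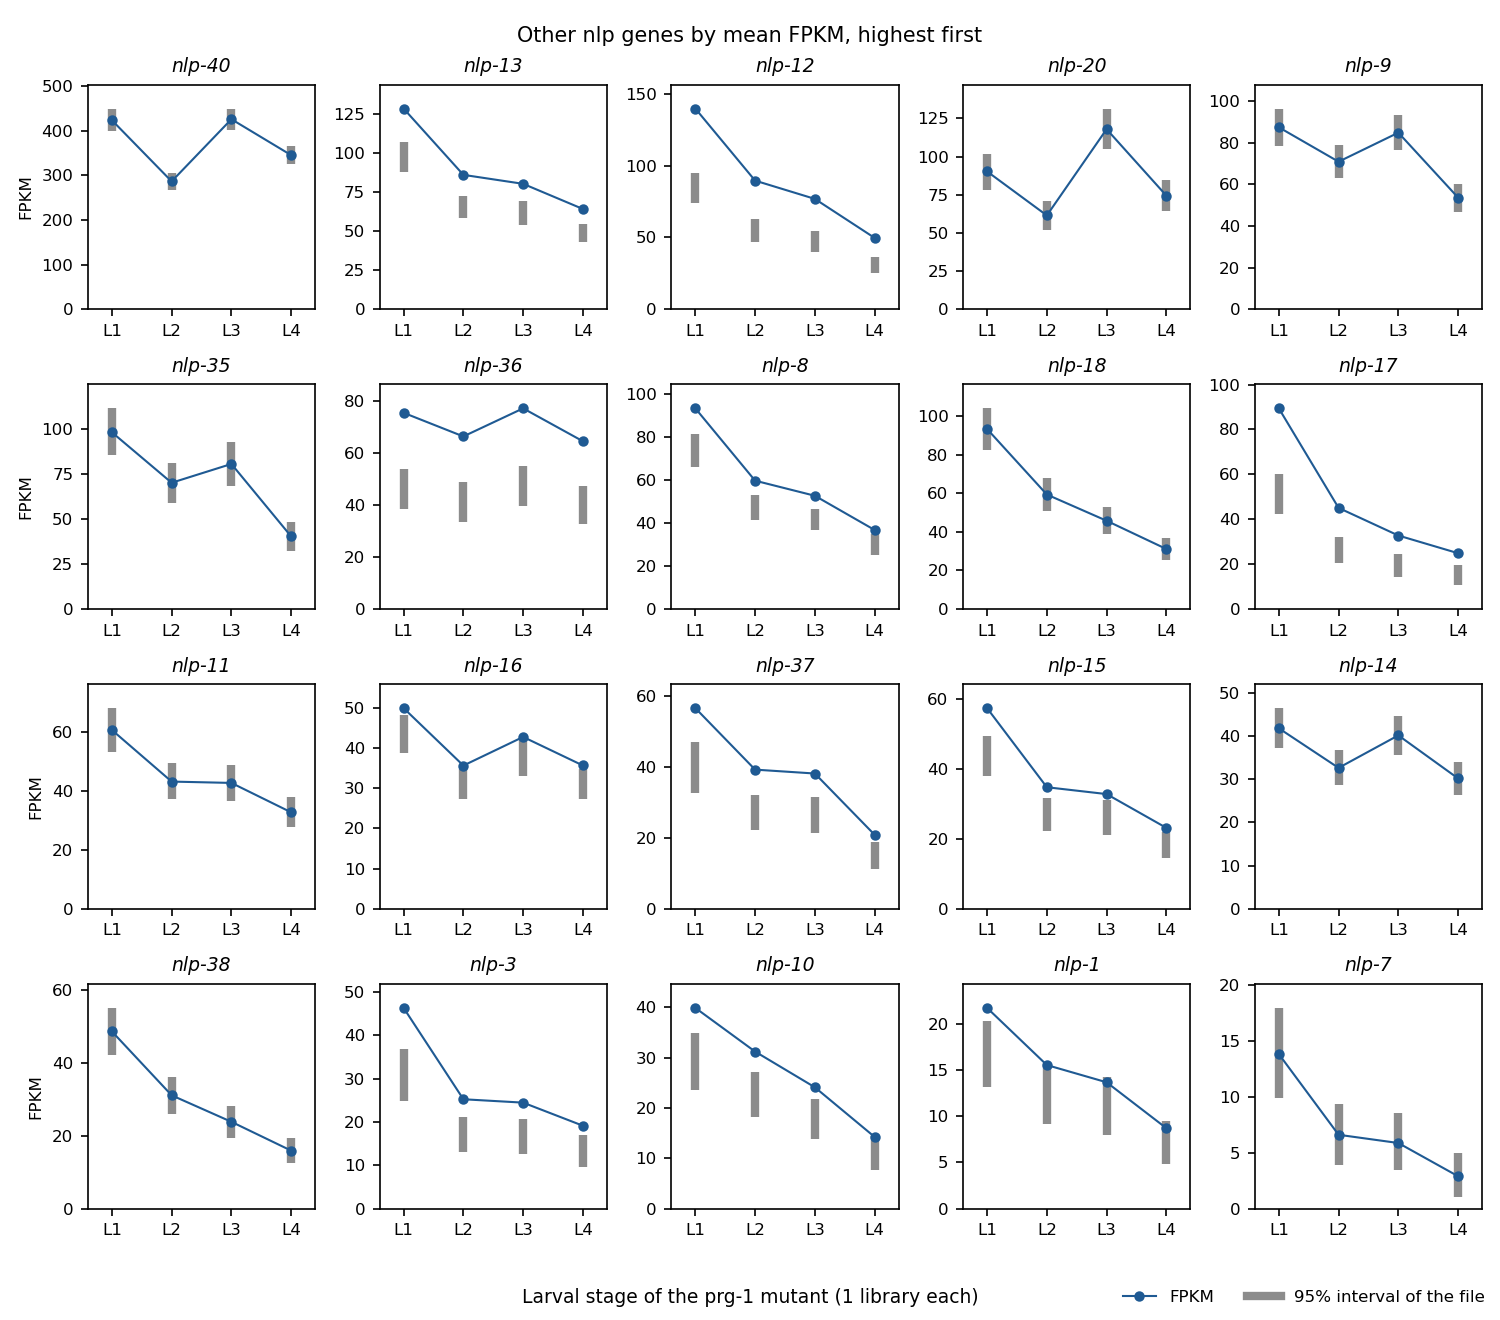
Level in FPKM (y axis, linear from 0, a scale for each gene) of 20 of the other *nlp* genes at L1 to L4 (x axis, 1 library each), with points for the FPKM and blue lines between them, and grey bars for the 95% interval of the file. In most panels the points run down from L1, and *nlp-40* and *nlp-20* have a low point at L2 and a high one at L3.

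A few members were barely read. *nlp-22*, *nlp-23* and *nlp-2* lie side by side on the reverse strand of chromosome X, with gaps of 306 and 984 bases, inside the span of the forward-strand gene T01B6.1. *nlp-22*, a peptide of the interneuron RIA that promotes quiescence around the molts, was read only at L1, at 0.680 FPKM (0 to 1.34), and *nlp-23* only at L4, at 0.846 FPKM (0.168 to 1.51). *nlp-2* measured 5.72 FPKM in L1 worms (2.92 to 6.86), 4.27 in L2 (2.02 to 5.94), 3.45 in L3 (1.59 to 4.41) and 2.04 in L4 (0.724 to 3.26), and T01B6.1 5.20, 8.85, 6.36 and 9.60 FPKM. *nlp-4* stayed below 1 FPKM and *nlp-39* was listed at 0 at every stage. *nlp-46* had wide intervals that overlapped at all stages, with 13.9 FPKM in L1 worms (3.96 to 25.7), 3.94 in L2 (0 to 11.8), 1.91 in L3 (0 to 9.54) and 1.88 in L4 (0 to 9.40). The remaining members, *nlp-5*, *nlp-6*, *nlp-19*, *nlp-41* and *nlp-42*, lay between 0.322 and 41.8 FPKM. In all, 40 of the 44 members reached 1 FPKM at some stage.

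Some of the genes that make and release neuropeptides were also lower at L4. Of 11 such genes, 5 fell at L4 against L1, none rose, and 6 were not called. Of all protein-coding genes the rule called 3.2% lower and 7.1% higher there (4.57% and 10.1% of those at 1 FPKM or more). *egl-3*, the convertase, measured 375 FPKM in L1 worms (368 to 389), 263 in L2 (257 to 274), 209 in L3 (202 to 218) and 172 in L4 (166 to 180.3). *egl-21*, the carboxypeptidase, measured 290.3 FPKM in L1 worms (282 to 303), 181 in L2 (173 to 189.8), 171 in L3 (164 to 179.7) and 125 in L4 (118 to 132), and *sbt-1*, the chaperone of EGL-3, 418 FPKM in L1 worms (398 to 439), 268 in L2 (253 to 284), 279 in L3 (264 to 295) and 187 in L4 (175 to 199). *pghm-1*, an amidating enzyme, measured 204, 123, 133 and 95.3 FPKM, and *ida-1*, a protein of dense-core vesicles, 83.98, 72.8, 58.6 and 41.3 FPKM. The median log2 difference of the list without *unc-31* was -0.50 for L2 against L1 and -0.87 for L4 against L1 (-0.51 and -1.01 with it). *unc-31* had an interval of 4.14 to 11402 FPKM at L1 and gives no usable level there. *cpd-1*, a carboxypeptidase, measured 26.5, 18.2, 22.4 and 21.96 FPKM and *pamn-1*, an amidating enzyme, 16.04, 13.7, 16.3 and 17.8 FPKM, the highest value of *pamn-1* being at L4. Of the other convertases, *kpc-1* measured 13.5, 18.2, 14.4 and 15.5 FPKM and *aex-5* 12.1, 8.30, 8.59 and 9.70 FPKM, and their intervals at L4 and L1 overlapped. *pgal-1* failed at L3 and measured 165 FPKM at L1 and 99.5 at L4.

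Receptors of *nlp* peptides were rare transcripts, and none of 17 was called. Over all protein-coding genes the rule called 0.355% to 7.1% in a comparison and direction (0.506% to 10.1% at 1 FPKM or more). *pdfr-1* was the highest and measured 10.01 FPKM in L1 worms (8.61 to 11.4), 7.29 in L2 (6.10 to 8.48), 5.42 in L3 (4.40 to 6.43) and 4.94 in L4 (4.01 to 5.88), with the intervals at L2, L3 and L4 below that at L1. *ckr-2*, the receptor of *nlp-12* peptides, measured 4.62, 4.39, 3.55 and 2.96 FPKM, *npr-12* 4.88, 2.93, 2.44 and 2.84 FPKM, and *aex-2* 2.11, 2.19, 1.53 and 0.836 FPKM. The thyrotropin-releasing hormone receptor gene *trhr-1*, listed as *nmur-4*, measured 5.73, 4.66, 5.32 and 5.77 FPKM. Of the 17, 13 were highest at L1, beside 37.9% of all protein-coding genes (41.2% of those at 1 FPKM or more).

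No pan-neuronal marker was called in any comparison, beside 0.355% to 7.1% of all protein-coding genes in a comparison and direction (0.506% to 10.1% at 1 FPKM or more). By intervals alone, *rab-3*, *snb-1*, *unc-64*, *ric-4*, *unc-10*, *unc-13*, *snt-1* and *unc-104* lay lower at L4 than at L1. Those of *rgef-1* and *sng-1* overlapped. Of all protein-coding genes 15.7% lay lower at L4 than at L1 by intervals alone (21.4% of those at 1 FPKM or more). At L2 against L1 the intervals of all the pan-neuronal markers overlapped. In that comparison 11.9% of all protein-coding genes lay lower and 9.04% higher (15.9% and 12.6% at 1 FPKM or more). The summed level of 10 markers was 495 FPKM in L1 worms, 466 in L2, 408 in L3 and 334 in L4. Their median log2 difference was -0.04 for L2 against L1, beside -0.52 for the 33 *nlp* genes, and -0.70 for L4 against L1, beside -0.87. The 33 include members near 0 FPKM, whose differences are held near 0 by the added 1 FPKM. Over the 29 *nlp* genes at 1 FPKM or more in one of the 2 stages, the medians were -0.55 and -1.15. *snb-1*, the synaptobrevin of synaptic vesicles and the most abundant marker, measured 256 FPKM in L1 worms (185 to 209), 229 in L2 (165 to 187), 209.8 in L3 (151 to 173) and 191 in L4 (137 to 159). *rab-3*, another vesicle protein, measured 69.4 FPKM in L1 worms (63.9 to 75.1), 69.5 in L2 (64.01 to 75.1), 62.2 in L3 (57.1 to 67.4) and 40.9 in L4 (36.9 to 44.9). *ric-4* measured 68.7, 67.7, 58.4 and 41.98 FPKM and *unc-64* 24.1, 23.6, 18.9 and 16.01 FPKM from L1 to L4. Germline markers rose over the same stages, with a sum of 39.1, 55.2, 77.00 and 174.7 FPKM and all 8 higher at L4 than at L1 by the rule. Of all protein-coding genes 7.1% were called higher there (10.1% of those at 1 FPKM or more). The part of these tissues in the levels of the *nlp* genes was not tested.

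Many of these genes are short, and their FPKM and its interval disagree. Of the 37 members at 1 FPKM or more at all stages, 17 have a longest annotated transcript of up to 500 bases, and in 13 of these the FPKM lay outside its interval at every stage. Among the 13 members with transcripts over 700 bases this held for 4. *nlp-34*, with 264 bases the shortest of the 37, had an FPKM 3.41 times the midpoint of its interval at L1 and 3.48 times at L4. In *nlp-29* (354 bases) the ratio was 2.15 and 2.07, and in *nlp-40* (714 bases) 1.00 at both. Over all protein-coding genes at 1 FPKM or more, 11.8% to 12.9% lay outside their interval. Levels are thus poorly comparable between short and long members, whereas ratios between stages by FPKM and by midpoints differed by less than a factor of 1.2 in all 4 comparisons for 35 of the 37 members. For *nlp-24* at L2 against L1 they were 3.93 and 3.85. The exceptions were *nlp-19* and *nlp-46*, and for *nlp-46* at L4 against L1 the ratios were 0.136 and 0.317.

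**Figure D4:**
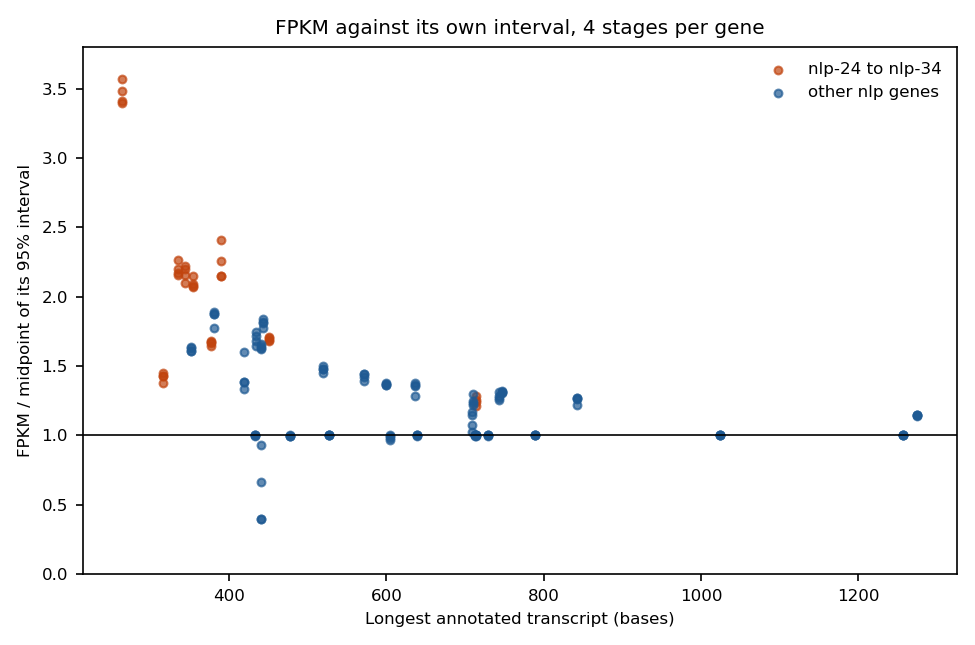
FPKM divided by the midpoint of its 95% interval (y axis, linear from 0, line at 1) against the longest annotated transcript in bases (x axis) for the 37 members at 1 FPKM or more at all 4 stages, with 1 point per stage. The epidermal genes are mostly the shortest, and *nlp-34* stands highest, at 3.395 to 3.572.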

How the data were processed

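The mRNA of whole *prg-1* mutant worms was measured in 1 library at each of 4 larval stages. According to the submitters' processing notes, reads were mapped with TopHat2 (2.0.8) and quantified with Cufflinks (2.1.1) on build ce10. The deposited values are FPKM per gene, made by the authors, with a 95% interval and a status. For the annotation version, the use of strand and reads with several matches, the method is not given in the sources used here. FPKM below 1 gave the relative depth of the libraries, and the interval is the only precision known, since the spread between cultures was not measured.

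Members were taken by name and matched to the RefSeq gene table of WBcel235, where all 44 were protein-coding and 41 had the same symbol, and transcript lengths, strands and overlaps came from the WBcel235 annotation. Coordinates are those of the files, and 1 member has the same coordinates in both. Stages were compared with a pseudocount of 1 FPKM, which understates differences of low genes, and the same rule run over all protein-coding genes gave the background shares. Values were computed with Python (3.11.15), numpy (2.4.6) and pandas (2.3.3), and plots with matplotlib (3.10.9). Only the rule for calling a gene was tested on simulated data, for L2 against L1, with intervals set around the simulated level. Genes with an FPKM outside its own interval were not simulated.

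Values are given in full for the epidermal genes, and among the other members for the 12 with the highest mean FPKM, those called in any comparison, and *nlp-1*, *nlp-3*, *nlp-12*, *nlp-14*, *nlp-22* and *nlp-40*. From the pathway lists and the epidermal and pan-neuronal markers, called members and the 4 with the highest mean are named, and the intestinal, muscle and germline markers are given as lists only. *nlp-2*, *nlp-19*, *nlp-21*, *nlp-23*, *nlp-46*, *nlp-47*, *dcar-1*, *lin-26*, *kpc-1*, *cpd-1*, *pamn-1*, *pgal-1*, *aex-2* and *aex-5* were added after their values were seen. The members and lists were chosen with earlier results of these data known. Peptide and promoter sequences were not analysed here.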

Additional observations from a re-analysis of the deposited data

How the results depend on the processing

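No paired analysis was possible because there is only 1 library for a stage. Of the counts of epidermal genes, those higher at L2 against L1 were 5 without the use of intervals and 0 when genes outside their own interval were left out, those lower at L3 against L2 were 4 and 1, and those higher at L4 against L1 were 0 when such genes were left out. At a minimum of 5 FPKM, 1 was lower at L3 against L2 and 0 higher at L4 against L3. Of the other 33 genes, 1 was lower at L2 against L1 when 0.1 FPKM was added in place of 1, or without intervals, 1 was lower at L4 against L3 without intervals, and 4 were lower at L4 against L1 when genes outside their interval were left out. The summed epidermal level from L1 to L4 was 559.9, 994, 689 and 767 FPKM after rescaling to a sum of 1000000, 354, 635, 449 and 518 FPKM by interval midpoints, and 2.56, 5.49, 0 and 2.62 FPKM over the 2 genes inside their intervals at all stages. For the others it was 1599, 1091, 1233 and 895 FPKM after rescaling, 1680.1 at L1 and 1148 at L2 by midpoints, and 1052, 725, 931 and 684 FPKM over the 19 genes inside their intervals. Among those genes 2 epidermal members were highest at L2, 14 others were highest at L1, and 7 others were lower at each later stage. Fewer members enter when genes outside their interval are left out, and for the other shifts the cause was not tested. The midpoint setting, those on the highest stage and the median without *unc-31* were chosen after seeing the data. The median epidermal log2 difference at L4 against L1 ran from -0.10, over members at 1 FPKM or more, to 0.20, and the other medians kept their sign under every alternative run. With 1 library per stage, the spread between cultures is unknown.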
